A study of Bos taurus with 10 samples.

Results

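The liver transcripts of glycogen synthesis and breakdown were compared between dairy cows fed conjugated linoleic acid (CLA) and cows fed a control fat. The gene set comprised PYGL, GYS2, UGP2, GBE1, PGM1, PPP1R3B, PPP1R3C and PHKA2. It was chosen by function, but with earlier results of these data known. All 8 genes were found on the Affymetrix bovine array, where a gene is read by 1 or more probe sets, each a group of short probes. They had 12 probe sets annotated to a single one of these symbols, out of 9155 genes and 13292 probe sets with a single symbol and 24016 probe sets tested. Of the 12 probe sets, 0 lay among the dimmest 30% of the array. Those dim sets were left out only in an alternative fit, so the 12 entered that fit as well. Where a gene had several sets, they are numbered from the brightest over the 10 arrays to the dimmest.

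The CLA group consisted of 20 female Holstein cows given a rumen-protected CLA fat, and the control group of 20 female Holstein cows given a rumen-protected control fat. The herd held first-calf and older cows, and cows of both groups had the same basal ration. The fat made up 27.3% of an added concentrate, of which each animal received 630 g of dry matter daily, starting 3 weeks before calving and ending 14 weeks after it. Biopsies from week 5 of lactation were used, and RNA of 4 cows was combined for each array, which gave 5 CLA pools and 5 control pools. The spread between pools is therefore that between averages of 4 cows, the variation between single cows was not measured, and p-values apply to pools. In biopsy RNA, fewer cells of a type and less RNA per cell cannot be told apart.

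Glycogen is the branched glucose store of the liver. Glucose 6-phosphate is turned into glucose 1-phosphate, activated to UDP-glucose, added to a growing chain by glycogen synthase and branched by the branching enzyme. Glycogen phosphorylase, which phosphorylase kinase switches on, cuts glucose 1-phosphate off the chains, and protein phosphatase 1, held on the glycogen particle by targeting subunits, turns synthase on and phosphorylase off. In the early-lactating cow the mammary gland draws heavily on glucose, and liver glycogen is known to be low around calving. Most of the control of this pathway acts on the enzymes through phosphorylation and ligands, which transcript levels do not show.

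None of the 8 glycogen genes passed the test for a difference between CLA and control livers. One of the 2 probe sets of PYGL, the liver glycogen phosphorylase, was higher in the CLA pools by 0.27 ± 0.087 (SE) on the log2 scale, a 1.20-fold difference, whereas the other differed by 0.02. GYS2, the liver glycogen synthase, differed by 0.30 ± 0.19 and PPP1R3B, a phosphatase targeting subunit, by 0.22 ± 0.10. Differences are CLA minus control throughout, with standard errors from limma. In limma with Benjamini-Hochberg adjustment over all 24016 probe sets, 0 of the 12 glycogen probe sets had an adjusted p under 0.05 (range 0.418 to 0.975), and 0% of all probe sets did. The unmoderated test called 0 as well. At an unadjusted p under 0.05, 1 of the 12 was counted (8.33%), against 8.89% of all probe sets, so the share of the glycogen genes lay near that of the array. That set was higher in the CLA pools, and of all probe sets 4.01% were counted as higher and 4.88% as lower. CLA and control pools overlapped for all 12, while they did not for 1.97% of all probe sets. Of the 12, 8 had a higher and 4 a lower mean in the CLA pools, and the median difference was 0.10, against a median of -0.018 over all probe sets.

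**Figure D1:**
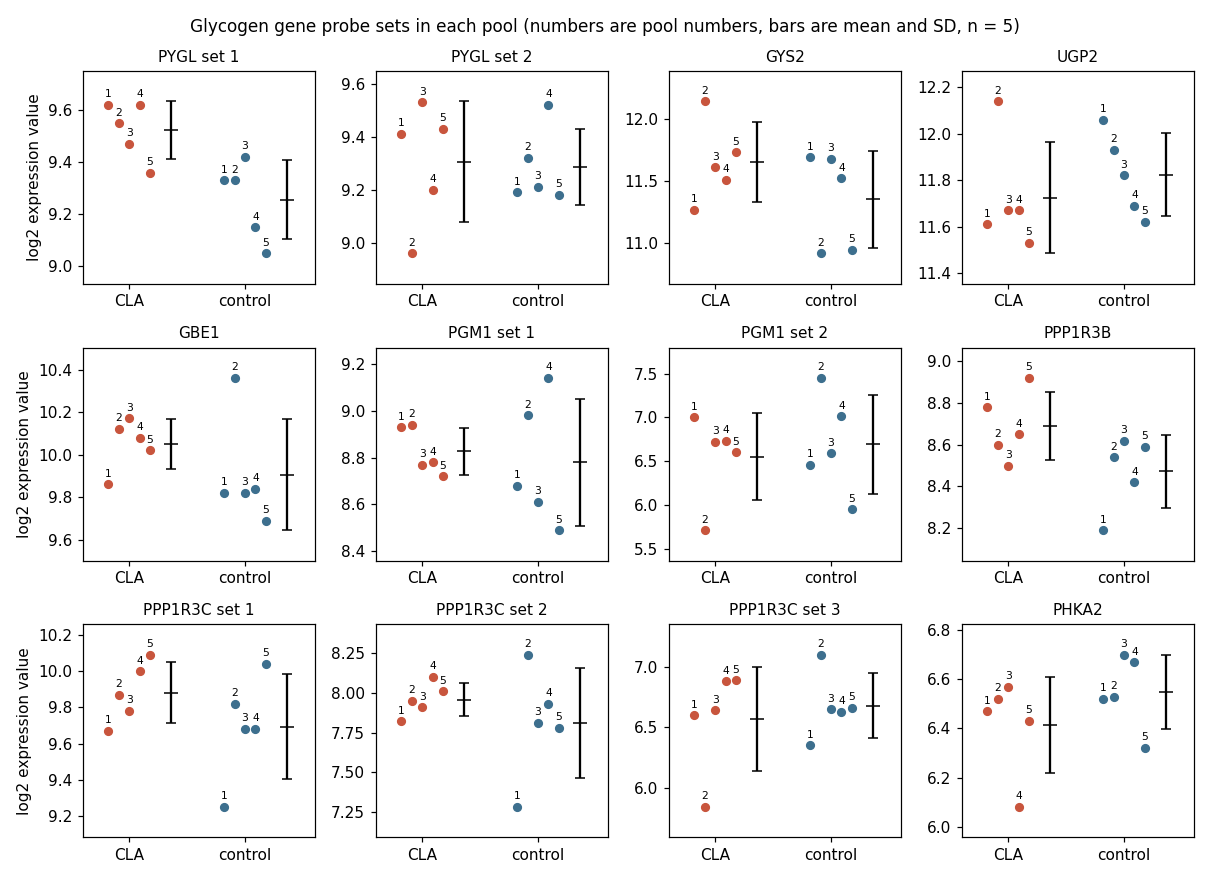
Log2 expression values of the 12 glycogen probe sets (vertical axes, 1 panel each) in the 5 CLA pools and the 5 control pools. Points are pools with their pool numbers, and the bars are the mean and SD of 5 pools. In the panel of PYGL set 1, 4 CLA pools lie above all control pools and CLA pool 5, at 9.36, lies below control pool 3, at 9.42.

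Arrays were close to each other, with correlations between 0.988 and 0.996 for any pair across probe sets. The array medians were 5.79 to 5.82 in the CLA pools and 5.83 to 5.85 in the control pools and did not overlap. After quantile normalization, cyclic loess normalization or subtraction of array medians, 9 of the 12 glycogen differences kept their sign and stayed within 1.5 times of the value with the deposited scaling. The other 3 were PYGL set 2, PGM1 set 1 and GBE1, and their values are given with each gene. CLA pool 2 and control pool 4 had the lowest median correlations with the other arrays, 0.990 each. CLA pool 2 also had the widest interquartile range, 3.80, and control pool 5 the narrowest, 3.59.

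The first steps of synthesis are carried by PGM1 and UGP2. PGM1, phosphoglucomutase, interconverts glucose 6-phosphate and glucose 1-phosphate in both directions of the pathway. Its brighter probe set had log2 values of 8.93, 8.94, 8.77, 8.78 and 8.72 in CLA pools 1 to 5, against 8.68, 8.98, 8.61, 9.14 and 8.49 in control pools 1 to 5. The CLA pools lay inside the range of the control pools, which spread more widely, and the difference was 0.05 ± 0.12. It ranged with the pools used: 0.14 without control pool 4, 0.0055 without control pool 3 and -0.024 without control pool 5, and was 0.11 without CLA pool 2 and control pool 4. It was 0.0096 after quantile normalization, 0.022 after cyclic loess and 0.079 after subtraction of array medians. The dimmer PGM1 set had values of 7.0, 5.71, 6.72, 6.73 and 6.60 in the CLA pools and 6.46, 7.45, 6.59, 7.01 and 5.95 in the control pools. It was the most variable of the 12 sets, with SDs of 0.49 in the CLA pools and 0.57 in the control pools, and differed by -0.14 ± 0.28. CLA pool 2 was far below the other CLA pools, and the difference was 0.07 without it and 0.15 without CLA pool 2 and control pool 4. Leaving out control pool 2 gave 0.050, control pool 4 -0.060 and control pool 5, the lowest control, -0.33. UGP2, UDP-glucose pyrophosphorylase, makes the activated sugar. Its values were 11.61, 12.14, 11.67, 11.67 and 11.53 in the CLA pools and 12.06, 11.93, 11.82, 11.69 and 11.62 in the control pools. All CLA pools but pool 2 lay below the control mean of 11.82, while CLA pool 2 was the highest of the 10. The difference was -0.10 ± 0.12. It was smaller once control pool 1 (-0.041) or CLA pool 5 (-0.052) was left out, and larger, -0.20, without CLA pool 2. Without both CLA pool 2 and control pool 4 it was -0.24, with an unadjusted p under 0.05 and an adjusted p = 0.610 in limma.

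GYS2 had the largest difference of the 12 probe sets and one of the largest spreads. GYS2 is the liver form of glycogen synthase, which lengthens the chains. Its log2 values were 11.27, 12.14, 11.61, 11.51 and 11.73 in the CLA pools and 11.69, 10.92, 11.68, 11.52 and 10.95 in the control pools. Control pools 2 and 5 lay below every CLA pool, whereas control pools 1, 3 and 4 lay among them. The means were 11.65 ± 0.32 in CLA and 11.35 ± 0.39 in control pools (SD, n = 5 each), and the 95% confidence interval of the difference ran from -0.11 to 0.71. The difference was 0.18 without CLA pool 2, 0.19 without control pool 2, 0.20 without control pool 5 and 0.13 with array weights. It was 0.40 without CLA pool 1, which had the lowest CLA value.

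GBE1, the glycogen branching enzyme, gives the molecule its branches. It had values of 9.86, 10.12, 10.17, 10.08 and 10.02 in the CLA pools and 9.82, 10.36, 9.82, 9.84 and 9.69 in the control pools. All 5 CLA pools lay above control pools 1, 3, 4 and 5, and control pool 2 lay above all CLA pools. The difference was 0.14 ± 0.12 with all pools. Without control pool 2 it was 0.26, and limma gave an unadjusted p under 0.05 and an adjusted p = 0.441. In that fit 9.26% of all probe sets had an unadjusted p under 0.05. The groups then no longer overlapped, as the control pool above all CLA pools was the one left out. The share of all probe sets without overlap was not computed for that fit. Without control pool 5, the lowest of the 10, the difference of GBE1 was 0.09, and it was 0.094 after quantile normalization.

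On the side of breakdown, PYGL cuts glucose 1-phosphate from the outer chains of liver glycogen. Its brighter probe set, PYGL set 1, had values of 9.62, 9.55, 9.47, 9.62 and 9.36 in the CLA pools and 9.33, 9.33, 9.42, 9.15 and 9.05 in the control pools. All 5 CLA pools lay above the control mean of 9.26, and 4 of them above the highest control pool. The 95% confidence interval of the difference was 0.08 to 0.46, with a Benjamini-Hochberg adjusted p = 0.418 in limma. An exact two-sided permutation test of this probe set alone over the 252 groupings of the arrays gave p = 0.0159, where the smallest p possible is 0.00794. The test was run on each of the 12 sets, and for the other 11 the exact p was 0.0873 (PPP1R3B) or more. The unadjusted p stayed under 0.05 in each of the 10 fits that left out a single pool, with differences of 0.22 to 0.31. The second probe set of PYGL had values of 9.41, 8.96, 9.53, 9.20 and 9.43 in the CLA pools and 9.19, 9.32, 9.21, 9.52 and 9.18 in the control pools. CLA pool 2 was the lowest of the 10, CLA pools 1, 3 and 5 were high, and control pool 4 was as high as these. The difference was 0.02 ± 0.11, 0.17 without CLA pool 2 and control pool 4, and between -0.034 and 0.11 when single pools were left out. It was -0.012 after quantile and -0.0088 after cyclic loess normalization and 0.053 after subtraction of array medians. With both probe sets averaged in each array, PYGL differed by 0.15 ± 0.070 (adjusted p = 0.623 in limma) and missed an unadjusted p of 0.05.

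PHKA2 encodes the liver form of the alpha subunit of phosphorylase kinase, a regulatory subunit of the enzyme that activates phosphorylase. Its values were 6.47, 6.52, 6.57, 6.08 and 6.43 in the CLA pools and 6.52, 6.53, 6.70, 6.67 and 6.32 in the control pools. CLA pool 4 was the lowest of the 10 pools and the others overlapped. The difference was -0.13 ± 0.10, and between -0.19 (without control pool 5) and -0.050 (without CLA pool 4) when single pools were left out.

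The targeting subunits PPP1R3B and PPP1R3C bring protein phosphatase 1 to glycogen. PPP1R3B, the form known best from liver, had values of 8.78, 8.60, 8.50, 8.65 and 8.92 in the CLA pools and 8.19, 8.54, 8.62, 8.42 and 8.59 in the control pools. All 5 CLA pools lay above the control mean of 8.47 and 3 lay above the highest control pool. The 95% confidence interval of the difference, from -0.0048 to 0.44, just held 0, and limma gave an adjusted p = 0.568. It was 0.15 without control pool 1, the lowest of the 10, 0.16 without CLA pool 5, the highest, and 0.27 without CLA pool 3. The unadjusted limma p of PPP1R3B was under 0.05 in 3 of the 10 fits that left out a single pool. The same held in 2 of 9 other alternatives. In the limma fit with the probe sets of each gene averaged, PPP1R3B had an unadjusted p = 0.049 and an adjusted p = 0.615.

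PPP1R3C, a more widely expressed targeting subunit, had 3 probe sets. Set 1, the brightest, had values of 9.67, 9.87, 9.78, 10 and 10.09 in the CLA pools and 9.25, 9.82, 9.68, 9.68 and 10.04 in the control pools, a difference of 0.19 ± 0.13. Set 2 had values of 7.82, 7.95, 7.91, 8.10 and 8.01 in the CLA pools and 7.28, 8.24, 7.81, 7.93 and 7.78 in the control pools, a difference of 0.15 ± 0.14. In both sets control pool 1 was the lowest of the 10 pools, and without it the differences were 0.077 and 0.018. At the other end, set 1 differed by 0.27 without control pool 5 and set 2 by 0.26 without control pool 2. Set 3 had values of 6.60, 5.84, 6.64, 6.88 and 6.89 in the CLA pools and 6.35, 7.10, 6.65, 6.63 and 6.66 in the control pools. CLA pool 2 stood 0.76 below the next CLA pool in set 3, and the difference was -0.11 ± 0.19 with it and 0.074 without it.

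**Figure D2:**
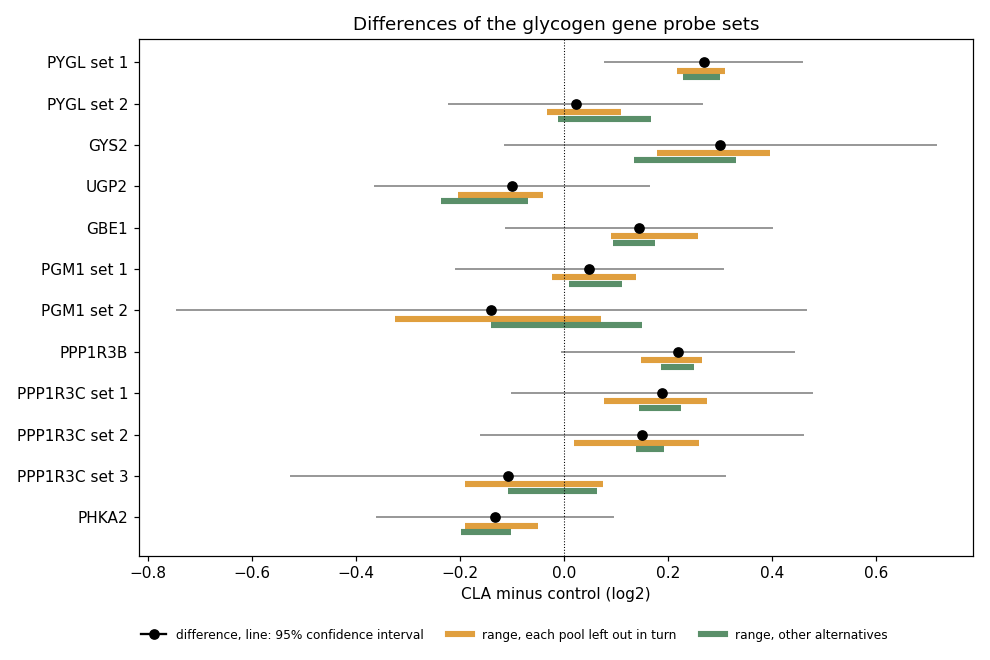
Differences of the 12 glycogen probe sets, CLA minus control on the log2 scale (horizontal axis). Points are the differences over all 10 arrays with their 95% confidence intervals, and the coloured bars are the ranges when each pool was left out in turn and under the other alternatives. The interval of PYGL set 1 (0.08 to 0.46) lies above 0, and those of the other 11 sets hold 0.

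Probe sets of the same gene did not give the same differences for PYGL, PGM1 and PPP1R3C, so the disagreement itself was tested. For every pair of probe sets that share a gene, the within-array difference of the brighter minus the dimmer set was fitted in limma, over 6466 pairs of 2913 genes. Of all pairs, 1 (0.0155%) had an adjusted p under 0.05, a pair of CA13, a carbonic anhydrase gene, and of the 5 pairs of glycogen genes 0 did. At an unadjusted p under 0.05 there were also 0 of 5, against 7.44% of all pairs. The CLA minus control difference of PYGL set 1 exceeded that of set 2 by 0.25 ± 0.15 (95% confidence interval -0.09 to 0.58, adjusted p = 0.717). That of PGM1 set 1 exceeded that of set 2 by 0.19 ± 0.24. In PPP1R3C, sets 1 and 2 differed by 0.038 ± 0.13 in their responses, and set 3 lay below set 1 by 0.30 ± 0.18 and below set 2 by 0.26 ± 0.17. These intervals are wide, and the test does not show that probe sets of a gene responded alike. In all 3 genes CLA pool 2 had its group's lowest value in the dimmest probe set and not in the brightest. Which part of the transcript each probe set reads was not analysed here.

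**Figure D3:**
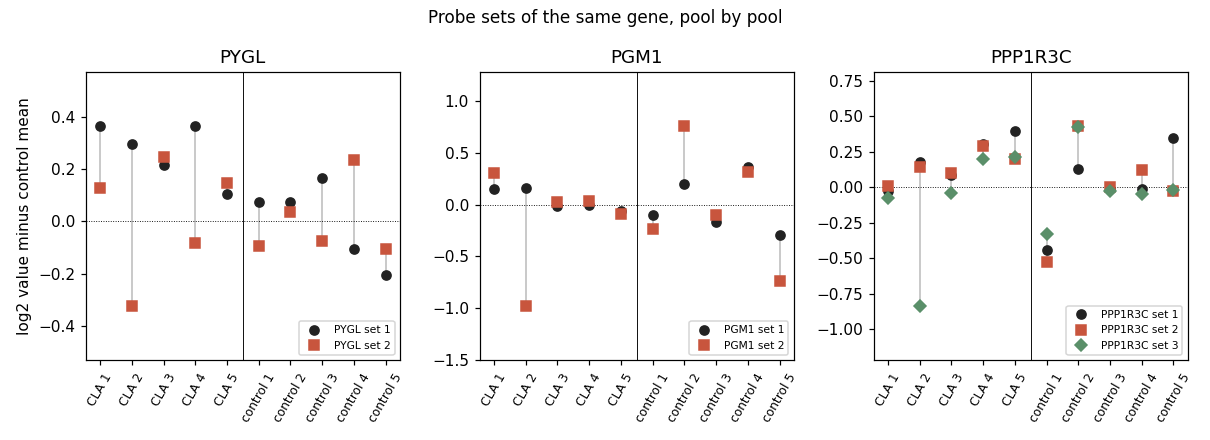
Probe sets of PYGL, PGM1 and PPP1R3C in each pool, drawn relative to the control average of the same set on the log2 scale (vertical axis). Symbols are probe sets, grey lines join the probe sets of a pool, and the vertical line separates the CLA pools on the left from the control pools on the right. The last probe set of each gene lies far below the others in CLA pool 2.

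The extreme values were spread over several pools. Control pool 5 had the lowest control value in 7 of the 12 sets and the highest in 1, CLA pool 1 the lowest CLA value in 4 and the highest in 2, and CLA pools 2 and 5 each the lowest and the highest in 3. CLA pool 2 had the highest CLA value in GYS2 and UGP2 and in the brighter set of PGM1, and the lowest in PYGL set 2, PGM1 set 2 and PPP1R3C set 3. Without CLA pool 2, 10 of the 12 sets had a higher mean in the CLA pools and 2 a lower mean, and the median difference was 0.12. Only UGP2 and PHKA2 were then lower in the CLA pools. Without control pool 5, by contrast, 6 stood in each direction and the median was 0.043. The count of sets in each direction thus changed when single pools were left out, and in the other single-pool fits 7 to 9 sets were higher. With quantile normalization the count was 7 to 5 with a median of 0.052.

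Around the core genes, the other measured genes of glycogen metabolism were described by the brightest probe set of each. Of 28 listed genes 12 were measured, 5 higher and 7 lower in the CLA pools, and their median was -0.003. Of these, 2 had an unadjusted p under 0.05, both higher, and 0 an adjusted p under 0.05. Over the brightest sets of all 9155 genes, 8.50% had an unadjusted p under 0.05 and the median was -0.010. PPP1CB, a catalytic subunit of protein phosphatase 1, the enzyme that PPP1R3B and PPP1R3C bind, averaged 10.60 ± 0.044 in the CLA pools and 10.38 ± 0.14 in the control pools (SD, n = 5 each). It differed by 0.21 ± 0.075 (adjusted p = 0.456 in limma), with 0.06 and 0.18 at its remaining sets. The related subunits PPP1CA and PPP1CC differed by -0.002 and 0.04 at their brightest sets. GSK3B, a kinase that phosphorylates and inactivates glycogen synthase, gave opposite values: 0.26 ± 0.11 at its brightest set, -0.21 ± 0.095 at the second and -0.09 at the third. The responses of its first and second set differed by 0.47 ± 0.14 (adjusted p = 0.492 over all same-gene pairs), and no direction is given for it. GSK3A differed by -0.03.

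The primer of new glycogen particles and the other degrading enzymes had an unadjusted p above 0.05. GYG1, glycogenin, on which glycogen particles start, differed by 0.04 ± 0.11. GAA, the lysosomal enzyme that digests glycogen, differed by 0.004 ± 0.069. PYGB, the brain form of phosphorylase, differed by -0.11 ± 0.082, and PYGM, the muscle form, was dim, at means of 3.11 in CLA and 3.15 in control pools. PHKG2, the catalytic subunit of phosphorylase kinase in liver, differed by -0.17 ± 0.092.

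Glucose enters and leaves the pathway as glucose 6-phosphate. Of 13 listed symbols for this step 9 were measured, 3 higher and 6 lower, with a median of -0.054, and 0 had an unadjusted p under 0.05. HK1, a hexokinase, had the smallest p of the list and differed by -0.13 ± 0.10 (adjusted p = 0.750 in limma). G6PC1, the catalytic subunit of glucose 6-phosphatase, which releases free glucose, averaged 11.94 in CLA and 11.88 in control pools, a difference of 0.054 ± 0.12. SLC37A4, the transporter that carries glucose 6-phosphate to that enzyme, differed by 0.12 ± 0.11 at its brightest set and by -0.22 and -0.10 at its others.

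Hormonal control was represented by 15 measured genes of 21 listed, 5 higher and 10 lower, with a median of -0.058. By the brightest sets 1 was higher and 2 were lower at an unadjusted p under 0.05, and 0 passed the adjusted test. This was 20% of the 15, against 8.50% of the brightest sets of all genes. Groups did not overlap for 2 of the 15. The share over all probe sets was 1.97%, and it was not computed for the brightest sets alone. NR3C1, the glucocorticoid receptor, had the largest difference, 0.62 ± 0.12, with means of 8.71 in CLA and 8.09 in control pools (adjusted p = 0.272 in limma), and groups that did not overlap. Its second, dim set differed by 0.23 ± 0.11 with overlap, and the responses of both sets differed by 0.38 ± 0.13 (adjusted p = 0.517 over all same-gene pairs). ADRA1B, an adrenergic receptor through which catecholamines stimulate glycogen breakdown, differed by -0.20 ± 0.072 without overlap. PRKAR2B, a regulatory subunit of protein kinase A, differed by -0.22 ± 0.090. Both were among the dimmest 30% of the array. ADRA1B averaged 3.96 in CLA and 4.16 in control pools, and PRKAR2B averaged 3.39 in CLA and 3.61 in control pools. INSR, the insulin receptor, whose signal promotes glycogen synthesis, differed by -0.29 ± 0.087 without overlap at its dimmest probe set, which was equally dim. The other 4 INSR sets differed by -0.37 to -0.004 and overlapped.

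Among other users and sources of UDP-glucose 5 of 7 genes were measured, 4 higher and 1 lower, with a median of 0.052 and 0 at an unadjusted p under 0.05. UXS1, which makes UDP-xylose, differed by 0.23 ± 0.12 (adjusted p = 0.585 in limma). UGDH, the enzyme that oxidizes UDP-glucose to UDP-glucuronic acid, differed by 0.11 ± 0.094.

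**Figure D4:**
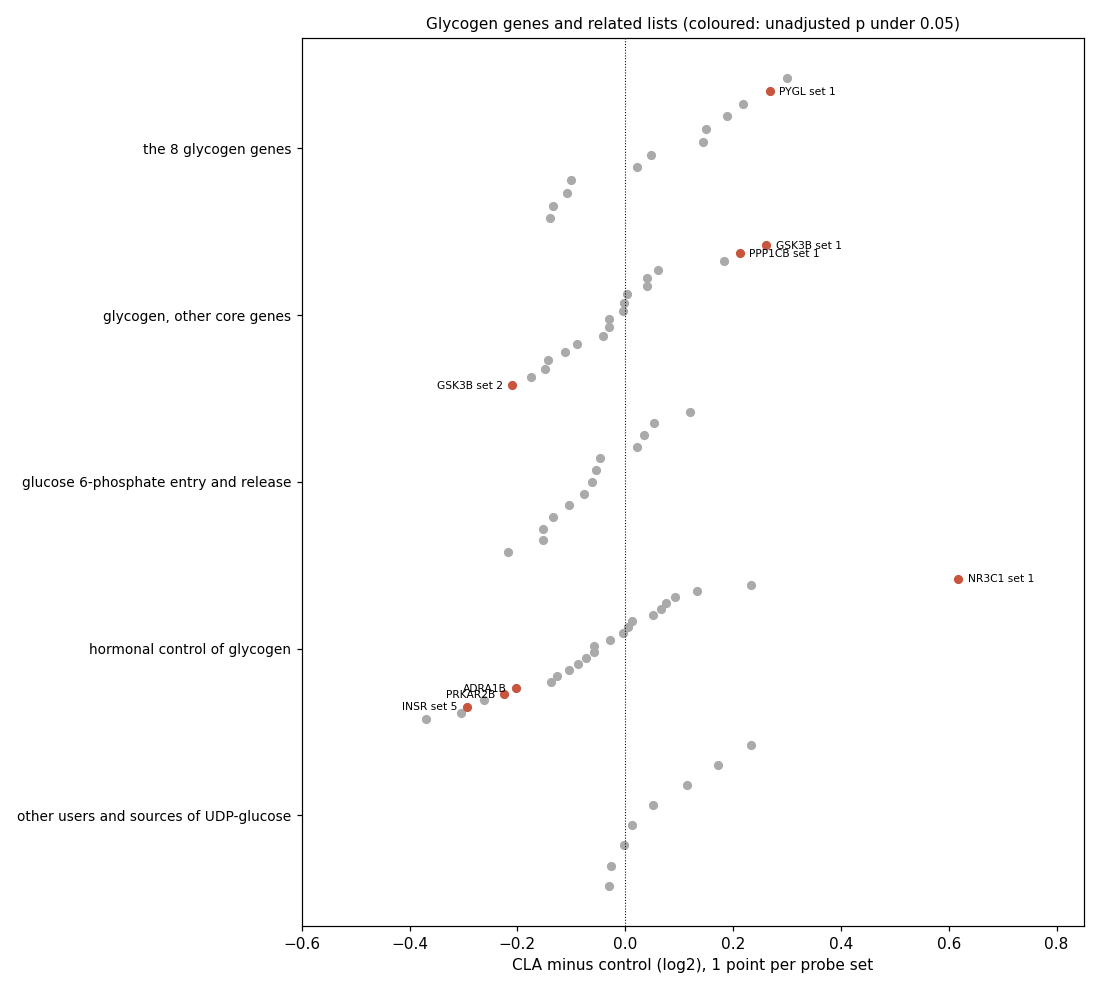
Differences of all probe sets of the 8 glycogen genes and of 4 related gene lists, CLA minus control on the log2 scale (horizontal axis), 1 point per probe set. Coloured and named points had an unadjusted p under 0.05 in limma, and 0 points passed the adjusted test. PYGL set 1 at 0.27 is the 1 coloured point among the 12 of the glycogen genes.

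The tissue label was checked against cell type markers. Hepatocyte markers were bright, with a mean log2 level over 12 genes of 12.96 to 13.10 in the CLA pools and 12.92 to 13.04 in the control pools, and 9 of 12 were higher with a median of 0.025. For lymphocytes of the T and NK lineages 9 of 10 marker genes were lower, with a median of -0.17 and mean levels of 6.44 to 6.73 in the CLA pools and 6.58 to 7.03 in the control pools. Of skeletal muscle markers, a source of other glycogen enzymes, 7 of 9 were lower with a median of -0.042 and mean levels of 5.30 to 5.68 in CLA and 5.36 to 5.71 in control pools. All 5 measured erythroid genes were lower, by a median of -0.082, at mean levels of 4.04 to 4.30 in CLA and 4.13 to 4.38 in control pools. Markers of Kupffer cells and macrophages were lower in 6 of 7 (median -0.050), at mean levels of 9.41 to 9.74 in CLA and 9.39 to 9.83 in control pools. Of 8 markers for stellate cells or fibroblasts 5 were higher (median 0.026; 6.59 to 7.08 in CLA and 6.64 to 6.95 in control pools). Endothelial markers were higher in 3 of 6 (median -0.012; 6.56 to 6.84 and 6.60 to 6.93 in CLA and control pools) and cholangiocyte markers in 2 of 4 (median -0.018; 7.09 to 7.22 and 7.02 to 7.31). Over the whole array, 13507 of the 24016 probe sets were lower in the CLA pools and 10509 higher. Among the dimmest 30% were 3 of the 5 erythroid, 4 of the 9 muscle and 2 of the 6 endothelial sets. The part of these cell types in the glycogen values was not tested.

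In each marker list the probe sets with the smallest p were taken, and they had an adjusted p of 0.332 to 0.707 in limma. ZAP70, a T cell receptor kinase, differed by -0.44 ± 0.11 and HBA, a hemoglobin chain, by -0.24 ± 0.076, both without overlap, HBA among the dimmest 30% of sets. Groups did not overlap for 1.97% of all probe sets. EMCN of endothelium differed by 0.25 ± 0.088 at its brightest set and LRAT of stellate cells by 0.22 ± 0.087. The hepatocyte genes AHSG and ALB were named for sets far dimmer than their brightest ones, with differences of 0.46 ± 0.13 and 0.24 ± 0.10. Their brightest sets differed by -0.002 and 0.042. AHSG set 3 was also bright, at means of 13.72 in CLA and 13.44 in control pools. It differed by 0.28 ± 0.10 (adjusted p = 0.462 in limma), and the remaining AHSG sets differed by -0.16 to 0.19. The muscle myosin MYH1 differed by -0.16 ± 0.069 at a set among the dimmest 30%, and by 0.04 at its brightest. CD68 of macrophages differed by -0.23 ± 0.14 and KRT19 of bile ducts by 0.19 ± 0.13.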

How the data were processed

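Each of the 10 arrays held 1 pool of liver RNA from 4 cows. The deposited log2 values had been normalized by the authors; the submitters' processing notes name Affymetrix Expression Console 1.1 and RMA, their order and settings are not given in the sources used here. Values have 2 decimals and were used as deposited. Of 24128 probe sets, 112 manufacturer controls were left out. Genes were named from the platform annotation (13292 probe sets with 1 symbol, 86 with several, 10638 with none); the gene identifiers of all 12 glycogen probe sets were found in the RefSeq table of assembly ARS-UCD2.0, with 0 differing symbols. No coordinates or sequences are given.

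CLA minus control was fitted in limma 3.58.1 (lmFit, eBayes; R 4.3.3) over all probe sets, without covariates, and tested on simulated data. Same-gene pairs were fitted likewise. Groups came from the sample titles. Over all probe sets, pool numbers showed no pairing of the arrays: the deviations of same-numbered arrays correlated between -0.0855 and 0.0925, with 0 of 5 over 0.1. Such correlations cannot show a pairing that touches only some genes. The members and lists were chosen with earlier results of these data known. Every glycogen probe set is named; in each other list, up to 4 genes with an unadjusted p under 0.05, or else the gene of smallest p. PPP1CA, PPP1CC, GSK3A, GYG1, GAA, PYGB, PYGM, PHKG2, G6PC1, SLC37A4 and UGDH were added for their roles after their values were seen. The number of arrays limits the precision. Alternatives are given in the closing section.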

Additional observations from a re-analysis of the deposited data

Results flagged for a closer look

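In 9 of the 106 groups of 5 pools examined (the CLA and the control pools of the glycogen sets, of all sets of the other named pathway genes and of the named marker sets), 1 pool stood apart from the other 4 by Dixon's ratio, its gap to the nearest pool over the whole range (critical value 0.71); chance flags about 1 in 20 groups. For the glycogen genes there were 4 of 24. UGP2 in CLA pool 2 was high at 12.14, against 11.67 for the next CLA pool (ratio 0.770). PPP1R3C set 3 in CLA pool 2 was low at 5.84, against 6.60 (ratio 0.724). PHKA2 in CLA pool 4 was low at 6.08, against 6.43 (ratio 0.714). GBE1 in control pool 2 was high at 10.36, against 9.84 (ratio 0.776). Outside the glycogen genes, PPP1CB set 2 was high in CLA pool 5 (ratio 0.875, a gap of 0.07), UXS1 was low in CLA pool 5 (ratio 0.758), PPP1CA was high in CLA pool 2 (ratio 0.763), GSK3A was high in CLA pool 2 (ratio 0.733) and INSR set 3 was low in control pool 5 (ratio 0.773). What set these pools apart was not tested.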

How the results depend on the processing

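The count of probe sets with an adjusted p under 0.05 stayed at 0 in every alternative but one, and was also 0 at a false discovery rate of 10%: without CLA pool 2 and control pool 4 it was 1, CGN1, which is no glycogen gene. The count of glycogen probe sets at an unadjusted p under 0.05 was 1 to 3 when single pools were left out (3 without control pool 5, where 8.12% of all probe sets were counted: PYGL set 1, PPP1R3B and PPP1R3C set 1; 2 without CLA pool 3, control pool 2 or control pool 3, with 6.56%, 9.26% and 9.56% of all). It was 2 after subtraction of array medians (8.75% of all), 2 with the trend and robust options (8.79%), and 2 without CLA pool 2 and control pool 4 (7.96%). By the rule that pools do not overlap, 0 glycogen sets were counted with all 10 arrays. Without CLA pool 5, control pool 2 or control pool 3 that rule counted 1, and the share of all probe sets was not computed there. With the pool number as a block the count at an unadjusted p under 0.05 was 1 (9.03% of all), PYGL set 1, as in the fit without the block. PYGL set 1 had an unadjusted p under 0.05 in all of these fits, but not as the mean of both PYGL sets. Signs of uncalled differences changed in 7 of 20 alternatives for PYGL set 2, 2 for PGM1 set 1, 4 for PGM1 set 2 and 4 for PPP1R3C set 3, and in 0 for the other 8 sets. Same-gene pairs with an adjusted p under 0.05 numbered 0 to 1 with single pools left out, and 0 with the replicate block, the unmoderated test, array weights, or without CLA pool 2 and control pool 4; the cause was not tested. Precision was limited by the number of arrays: the median standard error was 0.119 over the 12 glycogen probe sets and 0.0951 over all probe sets. The exact permutation test was added after the data were seen.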
